A study of Mus musculus with 6 samples.

Results

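The 9 genes described here, Barhl2, Zic1, Foxo6, Foxi3, Foxl1, Mpzl2, Mpped1, Fgd5 and Gjb2, were selected on their fall in cultures of mouse spermatogonial stem cells that were grown without GDNF, and most of them also fell after the libraries were scaled to genes shared by all germ cells. They are 9 of the 31384 genes in the count table, and all 9 passed the filter on low counts that left 16121 genes tested. RNA was sequenced in strand-specific, paired-end libraries from a mouse spermatogonial stem cell line collected on day 18 of culture. The medium of the PTC group held 10 ng/mL GDNF, that of the NTC group held none, and that of the LOVA group held 5 uM lovastatin in its place, with 2 libraries in each group. Every group also received 10 ng/mL EGF, 10 ng/mL FGF2 and 5000 U of LIF and grew on a feeder layer of mouse embryonic fibroblasts that mitomycin C had stopped from dividing. The letters A and B tell the libraries of a group apart, as in the deposited column names. Separate cultures are not stated for the libraries of a group, so p-values measure the spread between these libraries only, which may be technical. The study tested whether lovastatin can take the place of GDNF.

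GDNF is the growth factor that keeps spermatogonial stem cells dividing without differentiating. It binds the co-receptor Gfra1 and activates the receptor tyrosine kinase Ret, which signals to transcription factor genes. Lovastatin, a statin, inhibits HMG-CoA reductase and with it the synthesis of cholesterol and isoprenoids. The 9 genes do not form a pathway. Barhl2 encodes a homeobox transcription factor of the developing retina and spinal cord and is the single homeobox gene among them. Zic1 encodes a zinc finger transcription factor of the neural tube, cerebellum and neural crest. Foxo6, Foxi3 and Foxl1 encode forkhead transcription factors known from the brain, from ectodermal organs such as ear and teeth, and from the mesenchyme of the gut. Mpzl2 encodes an adhesion protein of the immunoglobulin family, Gjb2 encodes connexin 26, which builds gap junction channels, and Fgd5 encodes an exchange factor that activates the small GTPase Cdc42 and is known from endothelial and blood stem cells. Mpped1 encodes a protein with a metallophosphoesterase domain that is known from the developing brain.

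RefSeq promoter windows, which run from 250 bases before to 50 bases after an annotated start, were found for 6 of the 9 genes, with 2 starts for Mpped1. Barhl2 and Gjb2 are shown because they had the lowest NTC levels relative to PTC and the highest LOVA levels relative to NTC. Zic1 is shown because it holds the only match upstream of a start to any of the motifs searched, and Mpped1 because its starts differ in base composition. The sequences run 5′ to 3′ on the strand of the gene, in GRCm38.p6, and stop before the first annotated exon. CpG dinucleotides, the sites of DNA methylation in mammals, are in capitals. Barhl2 is read from chr5:106458167-106458416 on the minus strand, Gjb2 from chr14:57104703-57104952 on the minus strand and Zic1 from chr9:91365811-91366018 on the minus strand. The first Mpped1 start is read from chr15:83779773-83779981 and the second from chr15:83784579-83784828, both on the plus strand and inside the gene body of GENCODE M21 but outside its exons.
Barhl2: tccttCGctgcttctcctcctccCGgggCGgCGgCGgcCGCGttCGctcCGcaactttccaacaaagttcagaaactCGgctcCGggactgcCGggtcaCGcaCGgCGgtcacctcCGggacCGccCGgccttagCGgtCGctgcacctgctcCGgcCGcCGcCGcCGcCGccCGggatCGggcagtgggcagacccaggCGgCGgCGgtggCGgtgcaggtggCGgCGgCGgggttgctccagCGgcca
Gjb2: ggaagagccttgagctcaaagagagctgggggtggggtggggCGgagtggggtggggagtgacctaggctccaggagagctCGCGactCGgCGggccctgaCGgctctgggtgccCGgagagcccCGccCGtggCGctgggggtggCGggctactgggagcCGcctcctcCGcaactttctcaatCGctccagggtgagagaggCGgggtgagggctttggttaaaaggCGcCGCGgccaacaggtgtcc
Zic1: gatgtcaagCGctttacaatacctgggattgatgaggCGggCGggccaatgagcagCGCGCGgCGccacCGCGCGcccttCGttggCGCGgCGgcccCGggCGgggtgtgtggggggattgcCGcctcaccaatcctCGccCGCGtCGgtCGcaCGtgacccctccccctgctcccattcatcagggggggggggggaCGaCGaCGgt
Mpped1, first start: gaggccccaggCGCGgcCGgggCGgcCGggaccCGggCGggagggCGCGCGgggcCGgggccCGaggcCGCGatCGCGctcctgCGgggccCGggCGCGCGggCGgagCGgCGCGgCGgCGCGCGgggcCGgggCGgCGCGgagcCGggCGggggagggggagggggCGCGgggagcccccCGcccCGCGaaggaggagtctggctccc
Mpped1, second start: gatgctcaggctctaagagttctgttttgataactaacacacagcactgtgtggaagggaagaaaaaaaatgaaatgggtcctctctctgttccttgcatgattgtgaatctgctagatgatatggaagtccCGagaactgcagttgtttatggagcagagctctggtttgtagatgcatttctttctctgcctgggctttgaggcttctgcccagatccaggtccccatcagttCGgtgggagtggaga
In the printed bases, Barhl2 holds 36 CpGs, Gjb2 18, Zic1 26 and the first Mpped1 start 40, whereas the second Mpped1 start holds 2. Over the whole windows of 300 bases, the ratio of observed to expected CpGs was 1.03 for Barhl2, 0.760 for Gjb2, 0.969 for Zic1, 0.871 for Foxi3, 0.973 for Fgd5 and 0.997 and 0.185 for the starts of Mpped1. A ratio above 0.6, the usual mark of a CpG island, was thus found in 6 of the 7 windows. The same held for 63.5% of the windows of genes tested and 35.8% of all 32851 promoter windows. The second Mpped1 start is the exception, with a GC content of 47.3% against 89.3% at the first, and the gene counts do not tell which start was used.

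Both strands of the 7 windows were searched for CCGGAAGT (ETS factors), GTAAACA (forkhead factors), TAATTA (homeodomain factors), TGANTCA (AP-1), TGACGTCA (CRE) and CACGTG (E-box). CACGTG was present in 2 windows, starting 98 bases before the RefSeq start of Zic1 and 39 bases after that of Barhl2, and in 7.15% of all promoter windows. None of the other motifs occurred in the 7 windows. Their shares of all promoter windows were 3.89% for CCGGAAGT, 3.65% for GTAAACA, 5.29% for TAATTA, 7.81% for TGANTCA and 1.79% for TGACGTCA. A match is a run of letters and not a binding site, and its absence says only that these letters are not in these windows.

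The depth and the makeup of the cultures frame every value that follows. Total counts ranged from 12454671 to 22668087 per library, and 3 counts in a library correspond to between 0.128 and 0.258 CPM, the unit of all levels here, in which counts are divided by the TMM-scaled library total. The 19 pan-germ-cell genes were all detected in every library, and their summed level was 5116 and 5326 CPM in PTC A and B, 3203 and 2237 CPM in the NTC libraries, and 3682 and 2238 CPM in the LOVA libraries. Feeder fibroblast genes summed to 1632 and 6822 CPM in PTC A and B, 20053 and 35591 CPM in the NTC libraries, and 17527 and 36022 CPM in the LOVA libraries. Macrophage genes summed to 250 and 221 CPM in PTC A and B, 1808 and 2458 CPM in the NTC libraries, and 399 and 518 CPM in the LOVA libraries. The makeup of the NTC and LOVA libraries thus differed in macrophage RNA. The germ cell share of the RNA was thus lower, and the feeder share higher, in every NTC and LOVA library than in either PTC library. In bulk RNA, fewer cells of a type and less RNA per cell cannot be told apart. In NTC minus PTC, 9 of 19 pan-germ-cell genes and 11 of 19 genes of undifferentiated spermatogonia were called lower, and 1 of the latter was called higher. Thy1 is in both the undifferentiated and the feeder list, and all 21 genes of the feeder list had a positive log2 fold change. All 10 macrophage genes and 15 of 21 feeder genes were called higher. Of all 16121 genes tested, 2086 (12.9%) were called lower and 3472 higher. Without NTC B, 1 gene of all those tested was called in that comparison, and none of these lists held it. Without PTC A or PTC B no pan-germ-cell gene was called, and without NTC A 3 were. Of the undifferentiated list, 4 were called lower without PTC A, 6 without PTC B, 5 without NTC A and 1 when scaled to pan-germ-cell genes. Of the feeder genes, 2 were called higher without LOVA A, 2 without LOVA B, 3 with only NTC and PTC in the fit and 9 without NTC A, and all 21 had a positive log2 fold change in each of these fits.

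Lists of other cell types were examined because the 9 genes are also known from such cells. Neural genes summed to between 19.7 and 30.8 CPM in all 6 libraries, with 8 of 16 tested, 1 called lower and 1 called higher in NTC minus PTC. The neural level in PTC, 25.6 and 19.9 CPM, overlapped that in NTC, 19.7 and 21.9 CPM. Endothelial genes summed to 146 and 142 CPM in PTC and to between 69.6 and 100.2 CPM in NTC and LOVA, with 2 of 7 tested called lower (Pecam1 and Erg) and 1 higher (Emcn). Erg, an ETS factor, made up most of that level, with 110.3 and 106.7 CPM in PTC. The levels of the other genes of this list are not reported here. Epithelial genes summed to 306 and 231 CPM in PTC and to between 86.9 and 173 CPM in NTC and LOVA, with 1 of 10 tested called lower (Grhl2) and 1 higher (Trp63). Sertoli cell genes summed to between 16.2 and 120.0 CPM, with 1 of 5 tested called higher, and Leydig cell genes to between 5.25 and 7.99 CPM, with none of 3 tested called. Beside these counts, 12.9% of all genes tested were called lower and 34.5% in either direction. Without PTC A, and likewise without NTC B, no gene of the neural, endothelial or epithelial lists was called. Pecam1, Erg and Grhl2 also lost their calls without PTC B and when scaled to pan-germ-cell genes, Pecam1, Emcn and Grhl2 without NTC A, and Trp63 without PTC B. The Sertoli call was lost without LOVA A, LOVA B or NTC B. No gene of the neural, endothelial or epithelial lists was at 0 in all 6 libraries. The part of these cell types and of the feeder share in the results below was not tested.

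**Figure D1:**
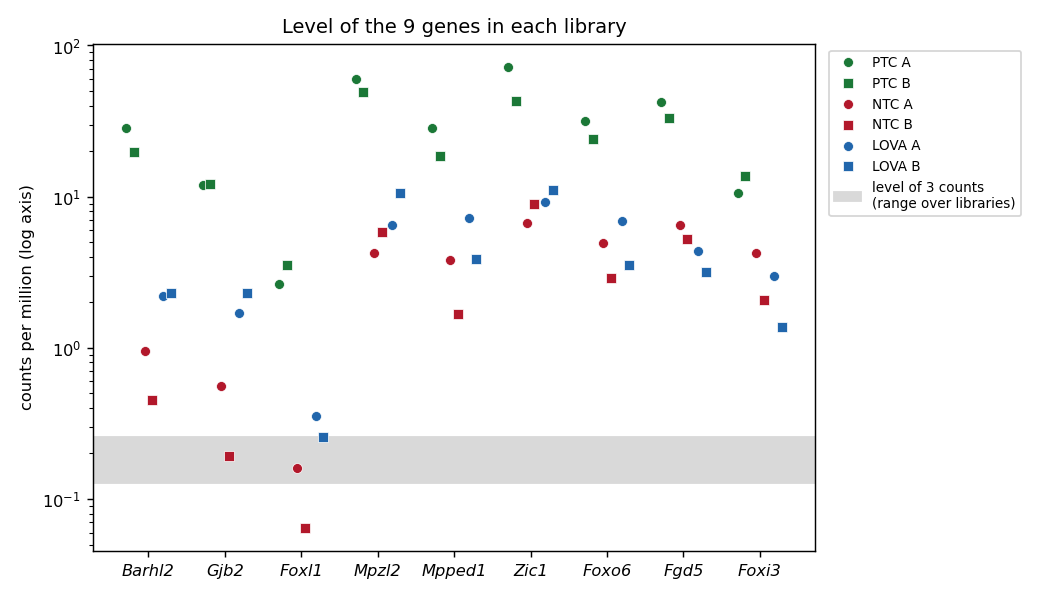
Level of each of the 9 genes in every library, in CPM on a log axis, with PTC in green, NTC in red and LOVA in blue, and circles for library A and squares for library B. The grey band marks the level of 3 counts, and every PTC point lies above every NTC and LOVA point of the same gene. The choice of genes that fell most without GDNF favours this order.

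Barhl2 showed the deepest fall of the homeobox, zinc finger and forkhead genes. Barhl2 (ENSMUSG00000034384, chr5:106452523-106458166, minus strand) was at 28.3 and 19.9 CPM in PTC A and B, at 0.955 and 0.451 CPM in NTC A and B, and at 2.21 and 2.32 CPM in LOVA. The groups did not overlap, and LOVA lay between PTC and NTC. The mean fell from 24.1 ± 5.96 CPM in PTC to 0.703 ± 0.357 CPM in NTC (SD, n = 2), a log2 fold change of -5.11 (SE 0.45). Because NTC minus PTC chose these genes, its values, intervals and calls are given for them as a description and are no independent test.

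Zic1 was the most abundant of the 9 genes in CPM. Zic1 (ENSMUSG00000032368, chr9:91358058-91365810, minus strand) was at 72.0 and 43.3 CPM in PTC, 6.69 and 8.89 CPM in NTC, and 9.25 and 11.1 CPM in LOVA. NTC and LOVA lay close together, well below PTC, and every LOVA library was above every NTC library. The log2 fold change was -2.88 (SE 0.33) in NTC minus PTC. Zic4 overlaps Zic1 on the opposite strand, and 60 exonic bases of the annotation belong to both genes, out of 5693 for Zic1. Whether the counting used the strand is not given in the sources used here, so reads from those bases cannot be assigned to 1 of the genes.

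The forkhead genes differed in level and in the depth of their fall. Foxo6 (ENSMUSG00000052135, chr4:120267079-120287349, minus strand) was at 31.8 and 23.97 CPM in PTC, 4.93 and 2.90 CPM in NTC, and 6.90 and 3.52 CPM in LOVA, with a log2 fold change of -2.84 (SE 0.44) in NTC minus PTC. Foxi3 (ENSMUSG00000055874, chr6:70956531-70961066, plus strand) was at 10.7 and 13.6 CPM in PTC, 4.22 and 2.06 CPM in NTC, and 2.99 and 1.37 CPM in LOVA. For both genes the NTC and LOVA libraries overlapped, and both groups lay below PTC. Foxi3 had the smallest fall of the 9 genes, with a log2 fold change of -1.96 (SE 0.50).

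Foxl1 was the rarest of the 9, and its values rest on few counts outside PTC. Foxl1 (ENSMUSG00000097084, chr8:121127940-121130644, plus strand) had 42 and 83 counts in PTC A and B, 2 and 1 counts in the NTC libraries, and 5 and 3 counts in the LOVA libraries. These correspond to 2.63 and 3.53 CPM in PTC, 0.159 and 0.0644 CPM in NTC, and 0.356 and 0.258 CPM in LOVA. Both NTC libraries were thus under the level of 3 counts. From the 125 counts in PTC and the 3 in NTC, the level in PTC was 29.7 times that in NTC. The exact 95% counting interval was 9.92 to 145.8, which covers counting error only. Foxl1 was chosen for its fall in this comparison, so this interval is a description and no test. From the 8 counts in LOVA, the ratio of LOVA to NTC was 2.91, with a counting interval of 0.700 to 17.1, so a difference was not detectable at this depth.

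Among the membrane and signalling genes, Gjb2 lost nearly all of its counts in NTC. Gjb2 (ENSMUSG00000046352, chr14:57098600-57104702, minus strand) was at 12.03 and 12.05 CPM in PTC, 0.557 and 0.193 CPM in NTC, and 1.71 and 2.32 CPM in LOVA. The NTC values rest on 7 and 3 counts and the LOVA values on 24 and 27 counts. LOVA again lay between the groups, with no overlap, and the log2 fold change was -5.02 (SE 0.53) in NTC minus PTC.

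Mpzl2 (ENSMUSG00000032092, chr9:45039799-45054015, plus strand) was at 59.7 and 49.0 CPM in PTC, 4.22 and 5.86 CPM in NTC, and 6.47 and 10.6 CPM in LOVA. Mpped1 (ENSMUSG00000041708, chr15:83779467-83858494, plus strand) was at 28.6 and 18.7 CPM in PTC, 3.82 and 1.67 CPM in NTC, and 7.19 and 3.87 CPM in LOVA. In both genes every LOVA library was above every NTC library, by a small margin for Mpped1. Their log2 fold changes in NTC minus PTC were -3.42 (SE 0.34) and -3.12 (SE 0.52). For Mpzl2, 2138 of its 6968 exonic bases are also covered on the other strand by Gm48840, an unclassified transcript that has no row of its own in the table.

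Fgd5 took a different order. Fgd5 (ENSMUSG00000034037, chr6:91978878-92076004, plus strand) was at 42.4 and 33.0 CPM in PTC, 6.45 and 5.22 CPM in NTC, and 4.34 and 3.18 CPM in LOVA. Both LOVA libraries were below both NTC libraries, and the log2 fold change in NTC minus PTC was -2.69 (SE 0.29). Fgd5 and Foxi3 were thus the genes with LOVA means below NTC means, and for Foxi3 the libraries overlapped.

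Compared per kilobase of exon, the PTC levels of 4 of the transcription factor genes were close. Foxo6 was at 10.7, Barhl2 at 10.4, Zic1 at 10.1 and Foxi3 at 9.47 CPM per kb. Mpzl2 followed with 7.80, Fgd5 with 6.00, Mpped1 with 5.51 and Gjb2 with 5.00 CPM per kb, and Foxl1 was lowest with 1.14 CPM per kb. In NTC the order differed, with Foxi3 highest at 2.45 CPM per kb, followed by Foxo6 at 1.498 and Zic1 at 1.37, while Barhl2 was at 0.304, Gjb2 at 0.156 and Foxl1 at 0.0413 CPM per kb. As a share of the PTC mean, the NTC mean ranged from 2.92% for Barhl2 to 25.9% for Foxi3.

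Over the 9 genes the median log2 fold change in NTC minus PTC was -3.12, against -0.02 over all genes tested. All 9 passed an adjusted p under 0.05 in the lower direction, as did 12.9% of all genes tested, a count that the choice of the genes fixes. The rule gave no threshold. Among the 11125 tested genes with a PTC mean of at least 5 CPM, ordered by the NTC minus PTC log2 fold change, Barhl2 was in place 2, Gjb2 in place 3, Mpzl2 in place 11, Mpped1 in place 17, Zic1 in place 19, Foxo6 in place 21 and Fgd5 in place 23. Foxi3 was in place 70, and Foxl1, below 5 CPM in PTC, was in place 20 among all genes tested. The first genes of that order that are not among the 9 included Sox2 (-4.88), Lhx1 (-4.87) and the predicted gene Gm26870 (-4.82). Gm26870 was at 68.5 CPM in PTC A and 1047 CPM in PTC B, so its place rests on 1 library. The predicted gene Gm10719, in place 1, was at 0.877 CPM in PTC A, 11.8 CPM in PTC B and 0 counts in both NTC libraries, and was not called. Sox2 and Lhx1, which encode transcription factors, differed by less than 2-fold between PTC A and PTC B.

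The fall was also set against germ cell RNA, since germ cell genes took a smaller share of the RNA without GDNF. With the libraries scaled to the summed counts of the 19 pan-germ-cell genes, the median over all genes tested moved up by 0.98 in NTC minus PTC and by 0.90 in LOVA minus PTC. On that scale the NTC minus PTC log2 fold changes were -4.19 for Barhl2, -4.11 for Gjb2, -3.82 for Foxl1, -2.41 for Mpzl2, -2.22 for Mpped1, -1.91 for Foxo6, -1.87 for Zic1, -1.74 for Fgd5 and -1.05 for Foxi3. All 9 values stayed negative, and all but that of Foxi3 passed an adjusted p under 0.05, as did 0.261% of all genes tested in the lower direction. This scale was part of the rule that chose the genes, and the count is given as a description. Per 10000 pan-germ-cell counts, Barhl2 had 55.3 and 37.3 counts in PTC, 2.98 and 2.02 in NTC, and 5.99 and 10.4 in LOVA. Foxi3 had 20.8 and 25.6 counts in PTC, 13.2 and 9.21 in NTC, and 8.11 and 6.14 in LOVA, so PTC remained above both other groups.

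**Figure D2:**
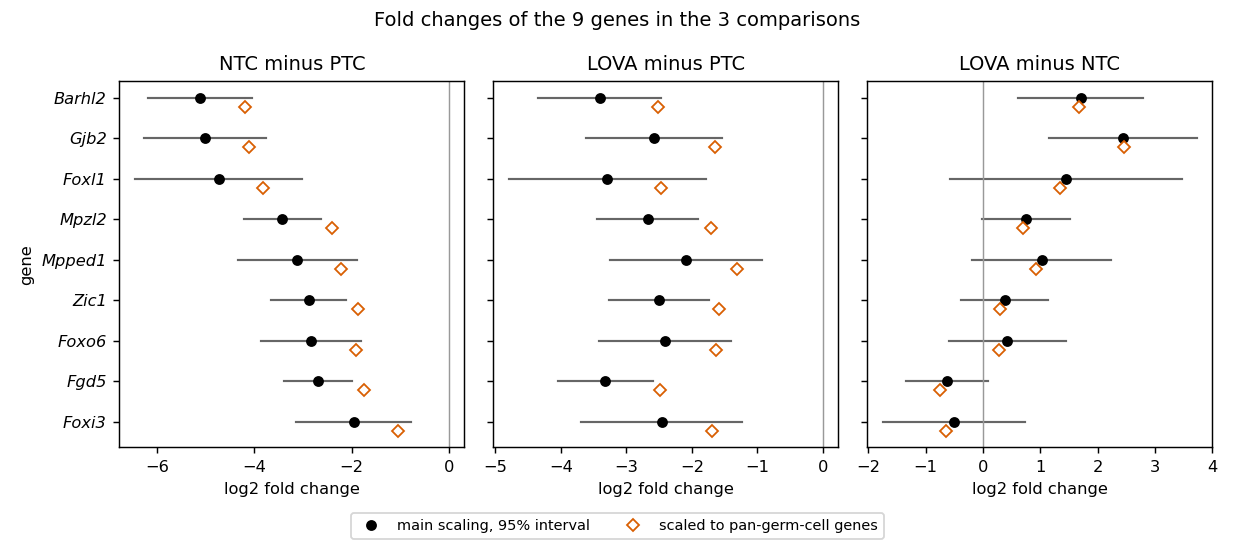
Log2 fold changes of the 9 genes in NTC minus PTC, LOVA minus PTC and LOVA minus NTC, with dots and bars for the main scaling and its 95% interval and open diamonds for libraries scaled to pan-germ-cell genes. All values are below 0 in the first and the second panel, while 7 of 9 are above 0 in the third.

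LOVA minus PTC asked how far lovastatin in place of GDNF left these genes from their level with GDNF. It shares the PTC libraries with the comparison that chose the genes, so its calls are not independent of that choice. In LOVA all 9 genes were lower than in PTC. The log2 fold changes in LOVA minus PTC were -3.41 for Barhl2 (SE 0.40), -3.32 for Fgd5 (SE 0.31), -3.29 for Foxl1 (SE 0.63), -2.68 for Mpzl2 (SE 0.32) and -2.58 for Gjb2 (SE 0.44). Those of Zic1, Foxi3, Foxo6 and Mpped1 were -2.50 (SE 0.32), -2.46 (SE 0.52), -2.41 (SE 0.43) and -2.09 (SE 0.49). With edgeR's quasi-likelihood test and Benjamini-Hochberg adjustment over all genes, adjusted p ranged from 0.0167 to 0.0256, and all 9 were called lower, as were 10.8% of all genes tested. The median over the 9 genes was -2.58, against 0.00 over all genes tested. As a share of the PTC mean, the LOVA mean ranged from 9.39% for Barhl2 to 23.4% for Mpped1.

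The count of called genes depended on single libraries, as it did over all genes tested, and on the scaling. All 9 kept a negative log2 fold change in LOVA minus PTC when 1 library was left out. The values ranged from -3.49 to -1.75 without PTC A, from -3.65 to -2.28 without PTC B and from -3.445 to -1.72 without LOVA B. Scaled to pan-germ-cell genes, 5 of the 9 were called (Barhl2, Fgd5, Foxo6, Foxi3 and Foxl1), as were 0.211% of all genes tested in the lower direction. For Zic1, Mpzl2, Mpped1 and Gjb2 the log2 fold changes on that scale were -1.58, -1.70, -1.30 and -1.65, with adjusted p of 0.0675, 0.0691, 0.0672 and 0.0683. Foxi3, at -1.05 in NTC minus PTC on that scale, was at -1.69 in LOVA minus PTC and kept its call there. In the main scaling, however, Foxi3 and Foxl1 lost their calls without PTC A, PTC B or LOVA B. Mpped1 lost its call without PTC A or LOVA B, and Foxo6 and Gjb2 without PTC A. With 1 library left out, Foxi3 ranged from -3.14 to -2.02 and Foxl1 from -3.55 to -3.06.

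LOVA minus NTC asked what lovastatin changed in the absence of GDNF. It shares the NTC libraries, whose low values chose the genes, so its values are not independent of that choice either. The log2 fold change was positive for 7 of the 9 genes and negative for Fgd5 and Foxi3, with a median of 0.75 against 0.01 over all genes tested. None of the 9 was called by edgeR, as was 0% of all genes tested (0 of 16121). At an unadjusted p under 0.05 there were 2 of the 9, Gjb2 and Barhl2, and 561 of all genes. DESeq2 called 120 genes, Gjb2 among them, and limma-voom called 4, none of them among the 9.

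The change was largest for Gjb2. Its log2 fold change was 2.44 (SE 0.54, 95% interval 1.15 to 3.73) in LOVA minus NTC, with an adjusted p of 0.453 in edgeR and between 0.00578 and 1 over the alternatives. Barhl2 followed with 1.70 (SE 0.46, 95% interval 0.62 to 2.79) and an adjusted p of 0.746. Without NTC B, the library with the fewest Gjb2 counts, the log2 fold changes were 1.83 for Gjb2 and 1.23 for Barhl2, and without NTC A they were 3.30 and 2.28. The ratio of summed Gjb2 counts, 51 in LOVA and 10 in NTC, was 5.57 with an exact 95% counting interval of 2.80 to 12.3. This interval pools the libraries of each group and leaves out the spread between them. The choice of Gjb2 for low NTC values, and its naming here as the largest change, favour a high ratio, so the interval is no test.

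For the other 7 genes the intervals of LOVA minus NTC included 0. Mpped1 was at 1.03 (95% interval -0.18 to 2.24), Mpzl2 at 0.75 (-0.02 to 1.51) and Foxl1 at 1.45 (-0.57 to 3.48). Foxo6 was at 0.43 (-0.60 to 1.45) and Zic1 at 0.38 (-0.38 to 1.13). Fgd5 was at -0.62 (-1.33 to 0.08) and Foxi3 at -0.50 (-1.74 to 0.74). The widths of these intervals allow changes of 2-fold or more for Foxl1, Mpped1, Mpzl2, Foxo6, Zic1, Fgd5 and Foxi3, so a missing call does not show that LOVA and NTC levels were alike. The LOVA and NTC libraries did not overlap for 7 of the 9 genes, all except Foxo6 and Foxi3, and did not overlap for 25.6% of all genes tested. The direction turned for Foxi3 without NTC A (0.07) and for Foxo6 without LOVA A (-0.15).

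The libraries of 1 group also differed among themselves. Within PTC, 6 of the 9 genes were lower in B than in A, with Foxi3, Foxl1 and Gjb2 higher in B. Within NTC, 7 of the 9 were lower in B, all except Zic1 and Mpzl2, and within LOVA 5 were lower in B, all except Barhl2, Zic1, Mpzl2 and Gjb2. Per pan-germ-cell count, 7 of the 9 were lower in B within PTC, 6 within NTC and 3 within LOVA, so the more common direction in LOVA turned on that scale. Feeder genes took 0.174% of counts in PTC A and 0.707% in PTC B. The shares in NTC A and B were 2.02% and 3.33%, and those of LOVA were 1.80% and 3.36%. The B library thus held more feeder RNA in every group, and part of the spread of the 9 genes ran with it and part against it. The part of the feeder share in that spread was not tested.

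The shape of the 3 group levels over the 6 libraries was compared by the root mean square difference of centred log2 CPM (with 0.05 CPM added), where a smaller value means a more similar pattern. Among the 9 genes the closest pairs were Mpzl2 with Zic1 (0.300) and Foxo6 with Mpped1 (0.303), and the farthest was Foxi3 with Gjb2 (1.47). Barhl2 was closest to Gjb2 (0.409) and Foxl1 (0.433), the genes with the lowest share of PTC left in NTC. Of 14204 other protein-coding genes, the closest to Barhl2 was Lhx1 (0.328), a LIM homeobox gene. Lhx1 was also the second closest to Foxl1 (0.382), after Nlrp6 (0.350). Foxi3 had the closest partner of all 9, Rbmxl2 (0.0874), a retrogene known from the testis, followed by Dapk2 (0.220).

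The closest partners outside the 9 genes, apart from those of Barhl2, Foxl1 and Foxi3, were as follows. Foxo6 was closest to Alox12e (0.252) and Zfp428 (0.277), and Fgd5 to Alox12e (0.305) and Adora1 (0.410). Mpped1 was closest to Chrna4 (0.261), a nicotinic acetylcholine receptor subunit, and Slc39a4 (0.319), a zinc transporter. Zic1 was closest to Mmp9 (0.384) and Car6 (0.384) outside the 9 genes, and Mpzl2 to Smyd1 (0.374) and Skor1 (0.432). The nearest genes to Gjb2 outside the 9, Gpr142 (0.531) and Lrrc43 (0.549), were both at 0 counts in NTC and at 0.898 and 1.38 CPM in PTC, so their distances rest on few reads.

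Relatives of the 9 genes were counted to see whether whole families were lower in NTC. The 8 families held 49 tested relatives, of which 17 were called lower and 4 higher in NTC minus PTC. Of all 16121 genes tested, 2086 (12.9%) were called lower and 3472 higher, which is 34.5% in either direction. The median log2 fold change of the relatives was -0.45, against -0.02 over all genes. The lowest value in each family belonged to one of the 9 genes, as their choice for low values brings with it. With libraries scaled to pan-germ-cell genes, none of the 49 was called lower and 7 were called higher, with a median of 0.50. Without NTC B none of the 49 was called in either direction, and the median was -0.42. Without PTC A 2 were called lower and 2 higher, without PTC B 6 and 5, and without NTC A 4 and 3.

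**Figure D3:**
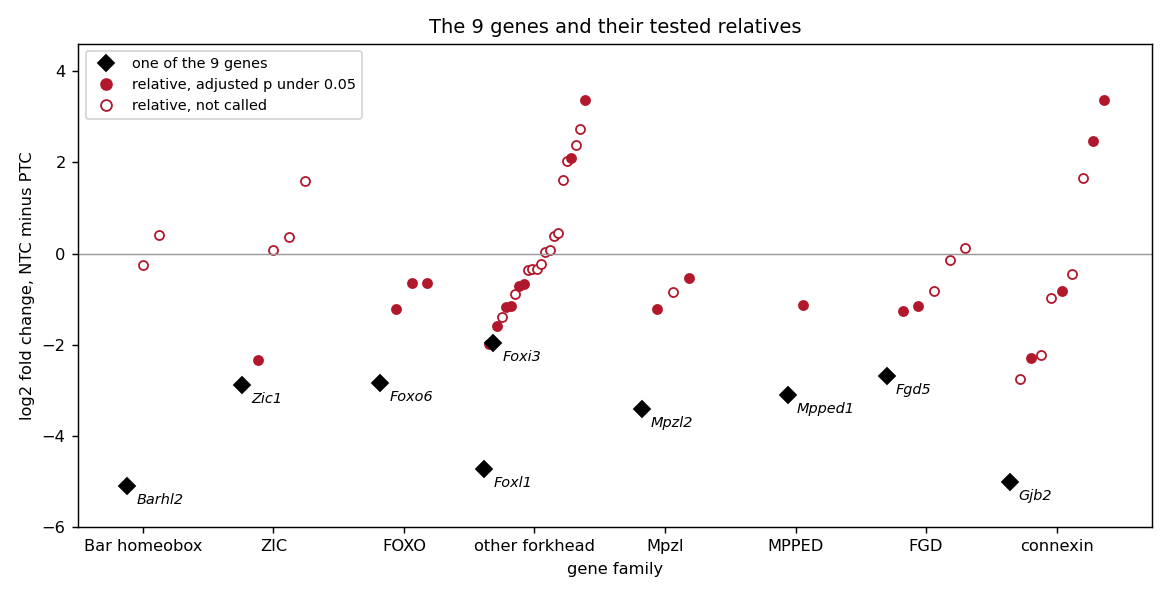
Log2 fold change in NTC minus PTC (vertical axis) of the 9 genes, drawn as black diamonds, and of their tested relatives in 8 gene families, drawn as filled circles where called at an adjusted p under 0.05 and open circles otherwise. Barhl2, Foxl1 and Gjb2 lie near -5, below all of their relatives.

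The 2 tested Bar homeobox relatives of Barhl2, Barx1 and Barx2, were not called. Barhl1 had at most 6 counts in any library and was not tested. Barx1, a homeobox gene of stomach and tooth mesenchyme, was at 5.95 and 7.88 CPM in PTC and 6.37 and 5.28 CPM in NTC, with overlapping groups and a log2 fold change of -0.25 (0.72 scaled to pan-germ-cell genes). Barx2 was at 0.41 (0.00 without PTC A). Of the ZIC genes, Zic4 fell with Zic1, from 5.26 and 4.51 CPM in PTC to 0.875 and 1.03 CPM in NTC, at -2.34 (SE 0.43) with an adjusted p of 0.013. It lost its call when scaled to pan-germ-cell genes (-1.35), without PTC A (-2.23), without NTC A (-2.23) and without NTC B (-2.47). Zic2 and Zic5 were at 0.07 and 0.37 and were not called (-0.29 and -0.36 without PTC B), with at most 2.51 CPM in any PTC library.

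All 3 FOXO relatives were called lower, less deeply than Foxo6. Foxo1, which is needed to maintain spermatogonial stem cells, was at 289 and 311 CPM in PTC and 139 and 118 CPM in NTC (-1.22, SE 0.26). Foxo3 and Foxo4 were both at -0.64, with SE 0.16 and 0.18. On the germ cell scale Foxo1 was at -0.25, Foxo3 at 0.35 and Foxo4 at 0.33, and none was called. None of the 3 was called without PTC A, PTC B, NTC A or NTC B, where Foxo1 ranged from -1.34 to -1.10, Foxo3 from -0.67 to -0.62 and Foxo4 from -0.74 to -0.54.

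Outside the FOXO genes, 22 forkhead relatives were tested, of which 6 were called lower and 2 higher. Foxa2, a regulator of endoderm, fell from 13.2 and 15.0 CPM in PTC to 3.02 and 3.99 CPM in NTC (-2.00, SE 0.32, edgeR adjusted p = 0.010). Foxc1 and Foxp2 rose, from 0.313 and 0.766 CPM to 5.49 and 6.18 CPM (3.37, SE 0.53) and from 0.626 and 0.937 CPM to 3.26 and 3.61 CPM (2.11, SE 0.43). Both kept their direction and their calls when scaled to pan-germ-cell genes, at 4.38 and 3.11, where Foxa2 was at -0.98 and lost its call. Without NTC B none of the 22 was called, with Foxa2 at -2.21, Foxc1 at 3.29 and Foxp2 at 2.04, and Foxp2 also lost its call without PTC A (1.86). Scaled to pan-germ-cell genes, 0 of the 22 were called lower and 5 higher.

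Among the adhesion and enzyme relatives the falls were shallow. Mpzl3 was at 43.2 and 41.3 CPM in PTC and 18.2 and 18.0 CPM in NTC (-1.22, SE 0.19), and Mpzl1 was called lower at -0.55 (SE 0.18). Mpped2, the only relative of Mpped1, went from 12.8 and 14.5 CPM to 6.77 and 5.80 CPM (-1.12, SE 0.28). Of the FGD genes, Fgd6 (-1.26, SE 0.29) and Fgd1 (-1.15, SE 0.21) were called lower, and Fgd2, Fgd3 and Fgd4 were not called. On the germ cell scale Mpzl1 was at 0.43, Mpzl3 at -0.24, Mpped2 at -0.15, Fgd6 at -0.30 and Fgd1 at -0.17, and none of them was called. Calls were also lost without NTC B (-0.51, -1.21, -1.01, -1.10 and -1.12 in that order) and without PTC A (-0.58, -1.19, -1.21, -1.09 and -0.95). Without NTC A all except that of Mpzl3 were lost, and without PTC B those of Mpzl1 and Mpped2.

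Connexins moved in both directions. Of 9 tested relatives of Gjb2, 2 were called lower and 2 higher. Gja1, which encodes connexin 43 and is abundant in fibroblasts, was at 4.14 and 22.4 CPM in PTC and 95.8 and 180 CPM in NTC (3.36, SE 0.83), in the same order of libraries as the feeder share. Gjb5 rose from 0.313 and 0.766 CPM to 2.63 and 3.61 CPM (2.47, SE 0.58). Both rises held when scaled to pan-germ-cell genes, at 4.45 and 3.50. Without NTC B no connexin was called, with Gja1 at 2.84 and Gjb5 at 2.23. Gjb5 also lost its call without PTC A, and Gja1 without NTC A, without either LOVA library and with only NTC and PTC in the fit (adjusted p between 0.0529 and 0.117). The part of the feeder share in the rise of Gja1 was not tested.

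Wider lists were set beside the 9 genes. Of 32 tested homeobox genes of other classes, such as the LIM and POU classes, 8 were called lower and 8 higher in NTC minus PTC, with a median of 0.39. Of all 16121 genes tested, 2086 (12.9%) were called lower and 3472 higher. Lhx1 fell from 14.5 and 9.07 CPM in PTC to 0.478 and 0.322 CPM in NTC (-4.87, SE 0.52). Lhx9 and Prrx1, a gene of fibroblasts that is also in the feeder list, were called higher at 3.45 and 3.24. Lhx9 lost its call without any 1 of the PTC and NTC libraries, and Prrx1 without either NTC library, without either LOVA library and with only NTC and PTC in the fit. Without NTC B none of the 32 was called, without PTC A 1 was called lower and 3 higher, 3 lower and 7 higher without PTC B, 4 of each without NTC A, and scaled to pan-germ-cell genes 1 was called lower (Lhx1) and 11 higher. Of 16 tested GDNF-responsive genes, 7 were called lower and 1 higher, with a median of -0.76. Barhl2 (-5.11) and Gjb2 (-5.02), chosen for low values in this comparison, were lower than all 16. Lhx1, 1 of the 16, was at -4.87. Without NTC B none of the 16 was called, without PTC A 3 were called lower, and without NTC A 4. Ret, the GDNF receptor, was at 291 and 199 CPM in PTC and 68.2 and 54.0 CPM in NTC (-2.00, SE 0.31), and Nanos2, an RNA-binding regulator of the stem cells, was at 18.5 and 18.5 CPM and at 5.41 and 3.67 CPM (-2.03, SE 0.39). With libraries scaled to pan-germ-cell genes, Ret was at -1.05, Nanos2 at -1.09 and Lhx1 at -3.93, and Ret and Lhx1 were the 2 of the 16 called lower.

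Genes next to the 9 were examined because neighbouring genes are sometimes regulated together. Within 200 kb of the 9 gene bodies lie 43 other protein-coding genes, of which 31 were tested. Of these, 6 were called lower and 7 higher in NTC minus PTC, with a median log2 fold change of -0.29 (0.00 without NTC A). Of all 16121 genes tested, 2086 (12.9%) were called lower and 3472 higher. A value below -1 was found for 7 of the 31, and for 10.4% of all genes tested. On the germ cell scale, none of the 31 was called lower and 8 were called higher. Without NTC B none was called, without PTC A 1 was called lower and 1 higher, without PTC B 3 and 3, and without NTC A 2 and 1.

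**Figure D4:**
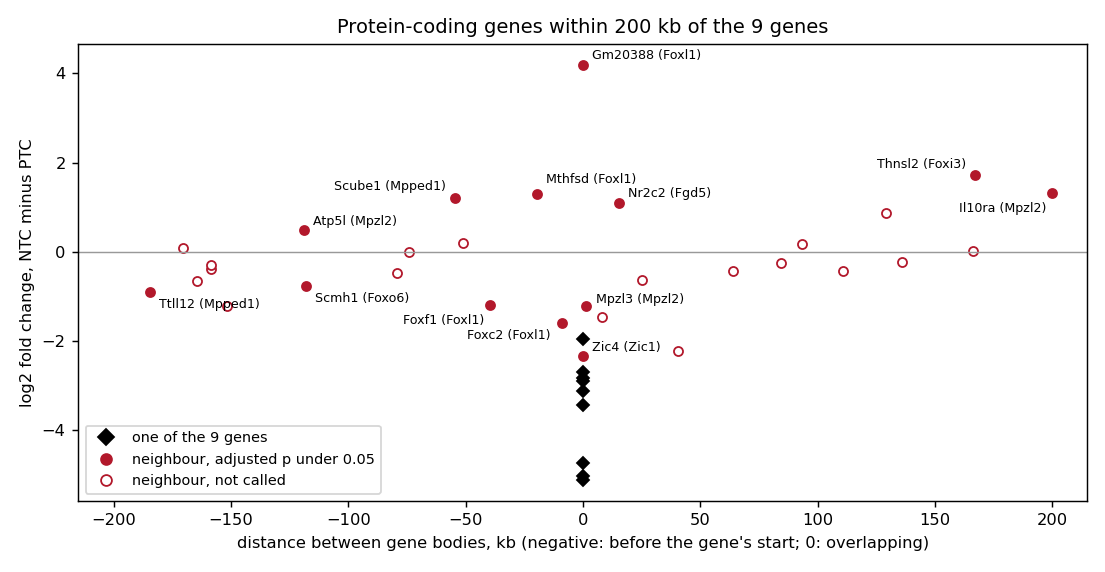
Log2 fold change in NTC minus PTC of the 31 tested protein-coding genes within 200 kb of the 9 genes, against the distance between gene bodies in kb, with filled circles for called genes and their names, each followed by the gene it lies next to. The 9 genes are black diamonds at distance 0, and the neighbours scatter on both sides of 0.

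Zic4 and the forkhead cluster around Foxl1 held 3 of the 6 neighbours that were called lower. Foxc2 ends 9045 bases before Foxl1 and was at 20.9 and 21.8 CPM in PTC and 7.96 and 6.31 CPM in NTC (-1.58, SE 0.36), while Foxf1, 39796 bases away, was at 134.0 and 129 CPM and at 57.3 and 58.8 CPM (-1.18, SE 0.17). Mthfsd, in the same interval, rose from 7.08 and 9.71 CPM to 21.5 and 20.2 CPM (1.31, SE 0.26). A predicted gene model on the strand of Foxl1, Gm20388, spans the whole cluster and was called higher (4.196), but its nearest exon lies 1217 kb from Foxl1 and shares no base with it. On the germ cell scale Foxc2 was at -0.62 and Foxf1 at -0.19, and neither was called. Foxc2 also lost its call without any 1 of the PTC and NTC libraries (-1.75 to -1.42) and Foxf1 without NTC B (-1.20), while Mthfsd lost it without PTC A (1.10), NTC A (1.27) or NTC B (1.35).

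At the other loci the nearest neighbours had log2 fold changes smaller in size than the genes beside them, which were chosen for large falls in this comparison. Mpzl3 starts 1171 bases from the end of Mpzl2 and was at -1.22, against -3.42 for Mpzl2. Nr2c2, 15386 bases from Fgd5, rose by 1.10 on the log2 scale (SE 0.27), and Scube1, 54446 bases from Mpped1, rose by 1.22 (SE 0.32), and both lost their calls without any 1 of the PTC and NTC libraries. Efcab6, 8218 bases on the other side of Mpped1, was at -1.45 (SE 0.53) and was not called. Gja3, 40500 bases from Gjb2, was at -2.23 (SE 0.84) from at most 1.57 CPM in PTC and was not called. Thnsl2, 167100 bases from Foxi3, rose by 1.73 (SE 0.41; not called without PTC A, NTC A or NTC B), and Eif2ak3, the nearest tested gene to Foxi3, was at 0.20. Zfp644, the only tested neighbour of Barhl2, was at -0.38 (0.59 on the germ cell scale) and was not called. Next to Foxo6, Scmh1 was called lower at -0.76, but not on the germ cell scale (0.23) nor without any 1 of the PTC and NTC libraries, while Hivep3 was at 0.86 and was not called, except with a replicate block by column letter and with no filter on low counts. An antisense gene inside Fgd5, 4930466I24Rik, had 5 counts over the 6 libraries and shares no exonic base with Fgd5.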

How the data were processed

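RNA counts of 6 libraries were analysed. The deposited table holds whole-number read counts per Ensembl gene, not normalized by the authors. The submitters' processing notes name Trimmomatic, Bowtie2, RSEM, DESeq2 and the build mm10, with no versions or roles, and if RSEM made the counts they are rounded estimates. Whether counting used the strand is not given in the sources used here. Symbols and positions came from GENCODE M21 (31363 of 31384 identifiers matched) and promoter windows from RefSeq on GRCm38.p6, the same assembly.

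Genes were filtered by filterByExpr, scaled by TMM and tested with edgeR 4.0.16 (quasi-likelihood F test, robust, legacy form, R 4.3.3) over all 6 libraries with 1 coefficient per group, which left 3 residual degrees of freedom. A gene was called, and is said to have risen or fallen, at a Benjamini-Hochberg adjusted p under 0.05 over all 16121 genes tested. Intervals are at 95% and come from the fit, and counting intervals cover counting error only. Alternatives were DESeq2 1.42.0, limma-voom 3.58.1, other scalings, no filter, a block by column letter, fits of 2 groups and leaving out each library, where a lone library is assumed to vary like the others.

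The 9 genes and the 9 marker and 10 family lists were chosen with earlier results of these data known. Named genes are, per family, up to 3 called relatives with the largest change and the range of the others; per gene, the 2 most changed and the nearest neighbours within 200 kb and the 2 most alike protein-coding genes; and the first 5 other genes in the order of NTC minus PTC. The pseudocount of 0.05 CPM for likeness was chosen after its values were seen. Some genes so named are not reported here, and counts include them.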

Additional observations from a re-analysis of the deposited data

How the results depend on the processing

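In NTC minus PTC, 5558 genes were called, and leaving out 1 library gave between 1 (without NTC B) and 6726. In LOVA minus PTC, 4939 genes were called, 3215 with only those groups in the fit, and between 758 and 6754 with 1 library left out. In LOVA minus NTC, 0 genes were called, against 15 with library totals, 191 with no filter on low counts, 120 in DESeq2, 4 in limma-voom, and between 0 and 2 with 1 library left out. Of the 9 genes, 9 were called lower in LOVA minus PTC, 5 scaled to pan-germ-cell genes and between 4 and 9 with 1 library left out. In LOVA minus NTC, 0 of the 9 were called, and 1, Gjb2, with no filter and in DESeq2 (adjusted p 0.00578 and 0.0242), with 0 in each fit that left out a library. Foxl1 could not be fitted in LOVA minus NTC with only those groups, since it failed the filter there. Scaling to pan-germ-cell genes changed the split of called genes from 3472 higher and 2086 lower to 4818 and 42 in NTC minus PTC, and from 3192 and 1747 to 3921 and 34 in LOVA minus PTC. The signs of all 9 genes in NTC minus PTC and LOVA minus PTC were the same under all 14 alternatives. The choice of these genes for large falls in NTC minus PTC, also on the germ cell scale, favours this.

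Reversed log2 fold changes were those of Foxi3 in LOVA minus NTC without NTC A (0.07, and down to -1.18 without LOVA A), Foxo6 in LOVA minus NTC without LOVA A (-0.15, and up to 0.83 without NTC A), and, scaled to pan-germ-cell genes in NTC minus PTC, Barx1 (0.72), Foxo3 (0.35), Foxo4 (0.33), Mpzl1 (0.43), Scmh1 (0.23) and Zfp644 (0.59). In NTC minus PTC, genes that were not called also turned: Zic2 with library totals (-0.047) and without PTC B (-0.29, up to 0.50 without PTC A), Zic5 without PTC B (-0.36, up to 1.70 without PTC A) and Barx2 without PTC A (-0.003, up to 1.02 without PTC B). The cause was not tested. Libraries of different groups share only a column letter, and nothing in the labels pairs them. The B minus A differences correlated across genes at 0.307, 0.354 and 0.476 between pairs of groups, and with a replicate block by that letter 8053 genes were called in NTC minus PTC, 7746 in LOVA minus PTC and 90 in LOVA minus NTC. With that block 9 of the 9 genes were called lower in LOVA minus PTC and 0 in LOVA minus NTC.

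Of 36 called relatives, neighbours and other named genes in NTC minus PTC, 24 lost their calls without PTC A. All 36 lost them without NTC B, where 1 of all genes tested was called, so that fit does not show that these changes rest on NTC B. Low counts limit Foxl1 and Gjb2 in NTC, where a level of 3 counts is reached or missed in single libraries.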
